A study of Mus musculus with 4 samples.

Results

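The oxygen-sensing pathway of the hypoxia-inducible factors (HIF) was followed through single cells of mouse adipose tissue (AT) by its 10 listed genes, chosen by symbol out of the 32290 features counted. They were the HIF subunits Hif1a, Epas1 and Arnt, the prolyl hydroxylases Egln1, Egln2 and Egln3, the ubiquitin ligase subunit Vhl, and the HIF-induced genes Ankrd37, Bnip3 and Adm. All 10 were found in the 4 libraries. The groups were WT (Tie2e-cre; TERT+/+; mTmG) and KO (Tie2e-cre; TERTfl/fl; mTmG), each in subcutaneous (SC) and intraperitoneal (IP) AT, with 1 library per group. All mice were male, 7 months old and on a high-fat diet (HFD) for 5 months. The controls therefore carried the same Cre and reporter as the KO and differed from it by the floxed telomerase gene. Cre was driven by a Tie2 promoter that the study uses for endothelial cells (EC), and mTmG is a reporter that changes from tdTomato to GFP where Cre has acted. The study asked with these libraries whether cells of AT other than EC respond to the loss of Tert in EC. The labels do not say how many mice were pooled in a library.

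When oxygen is present, the EGLN enzymes hydroxylate prolines of the HIF alpha subunits, the VHL protein binds the hydroxylated form, and the subunit is degraded. When oxygen falls, the alpha subunit (HIF1A, or EPAS1, also called HIF2A) stays, pairs with ARNT and binds the HIF response element, whose core reads ACGTG or GCGTG, in the promoters of its target genes. Much of this control acts on protein, so the RNA level of Hif1a does not report the amount of the factor, whereas RNA of targets such as Egln3, Ankrd37, Bnip3 and Adm is often used as its readout. In obese AT the pathway is studied because growing fat outpaces its blood supply.

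The 4 libraries held 700 to 2115 barcodes and 10015201 to 15533961 UMIs (unique molecular identifiers, each a counted RNA molecule), and 4113 cells were kept, with a median of 6706 to 13047 UMIs per cell. Each kept cell was given a class from 6 marker genes per class and is called by that class with the ending "-like". ASC-like (adipose stromal) cells numbered 104 (WT) and 206 (KO) in SC, and 284 (WT) and 236 (KO) in IP. T cell-like cells numbered 461, 1164, 121 and 125 in the same order, and B cell-like cells 303 and 468 in the SC libraries. Macrophage-like (73) and NK cell-like (48) cells reached 30 cells in WT IP alone, and EC-like cells reached 16 cells at most, so EC were not compared. All 6 markers of a class had UMIs in each class and library with at least 30 cells. Tert, the targeted gene, had 2 to 9 UMIs per library, 3 against 2 in SC and 8 against 9 in IP for WT and KO, which is too few to check the labels. The GFP coding sequence of the reporter reached 757 CPM (UMIs of a gene scaled to a class total of 1e6) in ASC-like and 1444 CPM in T cell-like cells of WT SC, so the reporter RNA was not confined to EC-like cells.

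KO SC and WT IP shared 93 barcodes, while the other pairs of libraries shared at most 1. In the 92 kept in both libraries the shared barcodes had a median of 605.5 UMIs in KO SC and 35536 in WT IP, and the KO SC total was 1.71% of the WT IP total in the median barcode. Of the 93 barcodes, 76 were ASC-like in KO SC. They made up 76 of its 206 ASC-like cells but only 2.62% of their UMIs. The origin of these barcodes was not tested. Without them KO SC had 130 ASC-like cells, and their median depth was 14661 UMIs instead of 5662.5, against 19990 in WT SC. Values of KO SC below are given with these barcodes, and ratios of its ASC-like cells also without them.

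Since HIF acts at promoters, the 250 bases before the start of transcription are shown for the 4 target genes whose RNA stands for the readout of the pathway. The sequences were taken from RefSeq (GRCm38.p6) and run 5′ to 3′ along the gene, with each ACGTG or GCGTG core, read on either strand, in capitals. Neighbouring or overlapping cores form a longer run of capitals. For Ankrd37 the RefSeq start lies inside the gene span given below (45996902 to 46005707), which is from GENCODE. Its window is therefore not the sequence before the start of that span. The same holds for Hif1a, whose window is not shown.
Adm, chr7:110627407-110627656, plus strand: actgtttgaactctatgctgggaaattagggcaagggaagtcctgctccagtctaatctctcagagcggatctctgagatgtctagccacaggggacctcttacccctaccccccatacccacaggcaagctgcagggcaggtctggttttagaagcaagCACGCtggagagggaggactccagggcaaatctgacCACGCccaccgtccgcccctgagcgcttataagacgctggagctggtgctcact
Ankrd37, chr8:45999851-46000100, minus strand: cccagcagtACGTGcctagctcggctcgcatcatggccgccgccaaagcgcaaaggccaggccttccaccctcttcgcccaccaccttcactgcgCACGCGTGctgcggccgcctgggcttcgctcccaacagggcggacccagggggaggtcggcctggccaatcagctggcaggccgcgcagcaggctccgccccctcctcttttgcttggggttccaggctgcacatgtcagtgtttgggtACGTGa
Bnip3, chr7:138909507-138909756, minus strand: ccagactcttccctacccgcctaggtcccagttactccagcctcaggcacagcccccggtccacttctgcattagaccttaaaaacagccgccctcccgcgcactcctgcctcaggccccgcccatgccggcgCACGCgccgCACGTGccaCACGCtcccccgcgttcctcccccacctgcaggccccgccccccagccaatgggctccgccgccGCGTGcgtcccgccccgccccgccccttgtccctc
Egln3, chr12:54203875-54204124, minus strand: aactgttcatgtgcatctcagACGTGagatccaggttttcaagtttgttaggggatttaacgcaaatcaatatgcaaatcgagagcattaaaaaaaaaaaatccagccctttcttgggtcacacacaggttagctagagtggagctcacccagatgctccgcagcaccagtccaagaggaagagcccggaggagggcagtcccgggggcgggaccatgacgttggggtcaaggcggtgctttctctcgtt
The promoter of Bnip3 held 5 cores, that of Ankrd37 4, that of Adm 2 and that of Egln3 1. The palindrome CACGTG in Bnip3 counts as 2 of its cores, once on each strand. Of 32851 promoters of the same length, 38.6% held at least 1 core and 2.58% held at least 4. Entries were found for 9 of the 10 genes, all but Epas1, and those of Hif1a, Arnt, Egln1 and Egln2 held a core while that of Vhl held none. A core is a match of letters and not a measured binding site.

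Hif1a (ENSMUSG00000021109, GRCm38 chromosome 12, 73901375 to 73947530, plus strand) encodes the alpha subunit found in most cells. In ASC-like cells of SC it had 98.4 CPM in WT and 99.4 CPM in KO, from 182 UMIs each. In those of IP it had 94.0 CPM in WT (591 UMIs) and 146 CPM in KO (812 UMIs). The KO IP library stood above the other 3, whose exact Poisson 95% intervals overlapped. In T cell-like cells of SC Hif1a was at 125 CPM in WT and 147 in KO, and in those of IP at 186 in WT and 271 in KO. These 4 intervals did not overlap one another. B cell-like cells had the lowest levels of the 3 large classes, with 79.3 CPM in WT SC and 62.9 in KO SC. In WT SC the log2 ratio of ASC-like to B cell-like cells was 0.31 (-0.009 to 0.63), not beyond counting error. In WT IP the order ran from T cell-like cells (186) over macrophage-like (117) and ASC-like (94.0) to NK cell-like cells (87.5 CPM), and the last pair did not differ beyond counting error. All intervals cover counting error only. They treat UMIs as independent and leave out the spread between cells. With 1 library per group no difference could be set against the spread between mice.

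Epas1 (ENSMUSG00000024140, chromosome 17, 86753700 to 86833410, plus strand), the alpha subunit best known from endothelium, followed another pattern. ASC-like cells of SC held 48.1 CPM in WT (89 UMIs) and 65.0 in KO (119 UMIs), those of IP 107 in WT (670 UMIs) and 104 in KO (582 UMIs), so that the IP libraries were above the SC libraries in either genotype. T cell-like cells had 7.79 CPM (WT) and 6.59 CPM (KO) in SC, but 30.1 (WT) and 48.2 (KO) in IP. B cell-like cells held 0 UMIs in WT SC, which allows up to 1.59 CPM, and 4 UMIs in KO SC. The highest Epas1 levels belonged to classes under 30 cells. EC-like cells of WT SC had 79 UMIs in 3 cells (1959 CPM), those of WT IP 77 UMIs in 16 cells (268 CPM) and those of KO IP 38 UMIs in 5 cells (467 CPM), while the 2 such cells of KO SC had 0 UMIs. Mural cell-like cells (pericytes and smooth muscle) had 531 to 910 CPM in the 4 libraries, from 4 to 10 cells each. Neutrophil-like cells held 0 Epas1 UMIs in each library, which in KO IP allows up to 26.7 CPM, while their Hif1a reached 385 CPM in KO SC (10 cells) and 338 CPM in KO IP (22 cells).

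Arnt (ENSMUSG00000015522, chromosome 3, 95434388 to 95497240, plus strand), the shared partner subunit, was found in each of the large classes. It ranged from 66.0 CPM (KO IP) to 93.5 CPM (WT SC) in ASC-like cells, from 45.2 (WT IP) to 79.0 (KO IP) in T cell-like cells and from 92.0 to 101 in B cell-like cells. The lowest level was that of macrophage-like cells, 35.9 CPM.

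**Figure D1:**
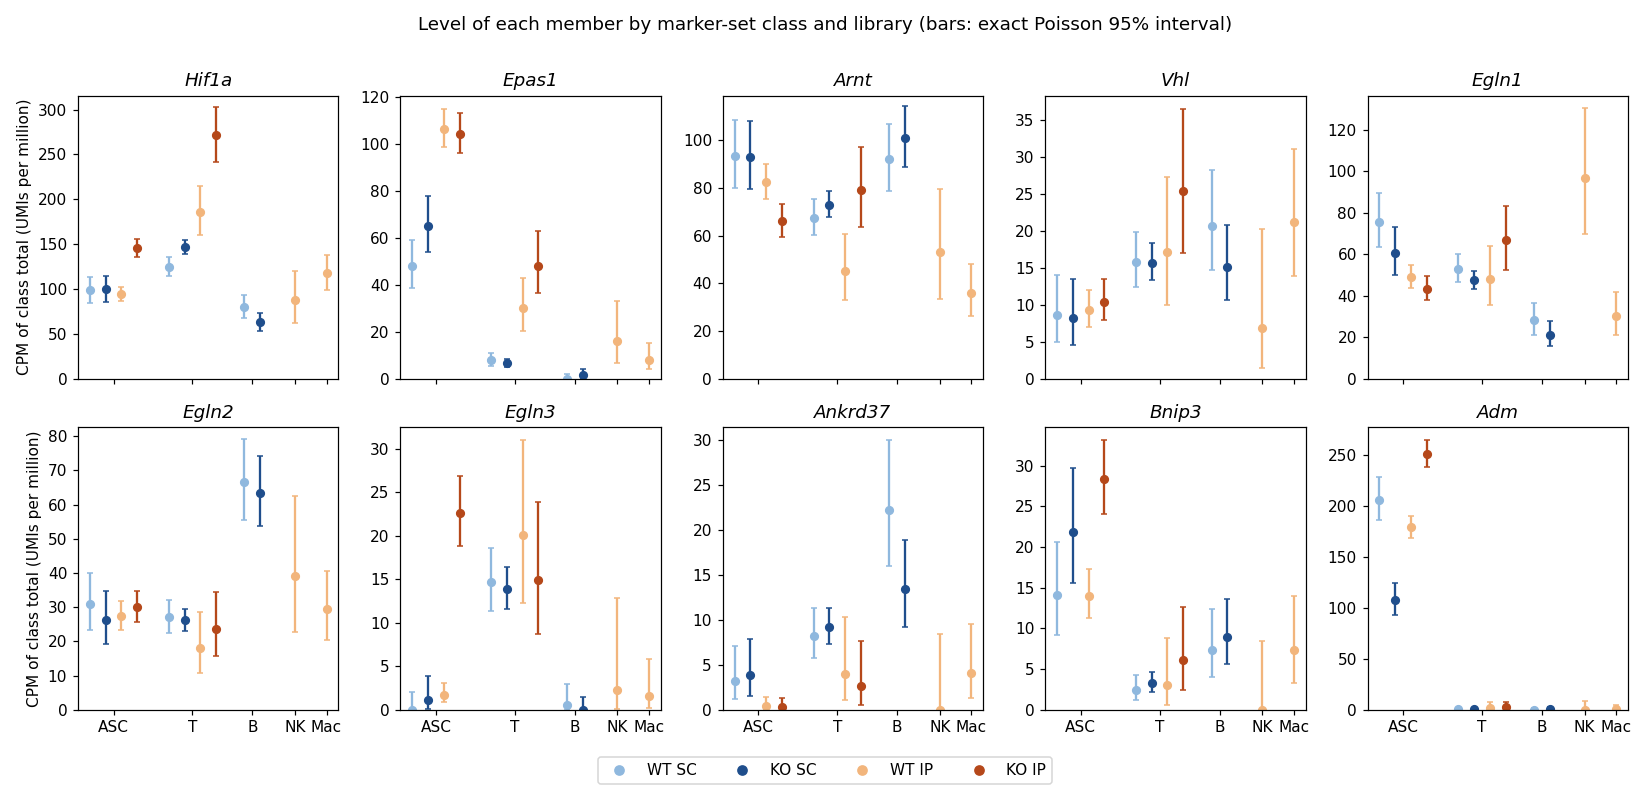
Level of each of the 10 genes in CPM of the class total (vertical axis, from 0) for ASC-like, T cell-like, B cell-like, NK cell-like and macrophage-like sums with at least 30 cells, with 1 point per library and exact Poisson 95% intervals. Adm lies between 108 and 251 CPM in the ASC-like sums and at or below 2.63 CPM in the others, while Hif1a is highest in T cell-like cells of KO IP (271 CPM).

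The 3 prolyl hydroxylases differed in where they were found. Egln1 (ENSMUSG00000031987, chromosome 8, 124908587 to 124949324, minus strand), which encodes the main oxygen sensor PHD2, had 75.7 (WT) and 60.6 CPM (KO) in ASC-like cells of SC, and 49.2 (WT) and 43.4 CPM (KO) in those of IP. T cell-like cells held 47.4 to 66.7 CPM, B cell-like cells 21.2 and 28.0 CPM, and NK cell-like cells 96.7 CPM. Egln2 (ENSMUSG00000058709, chromosome 7, 27158658 to 27166802, minus strand), encoding PHD1, was highest in B cell-like cells, with 66.6 CPM in WT SC and 63.3 in KO SC. It stood at 26.2 to 30.8 CPM in ASC-like and 18.1 to 27.0 CPM in T cell-like cells, ranges that lie below both B cell-like values. Egln3 (ENSMUSG00000035105, chromosome 12, 54178981 to 54203860, minus strand), encoding PHD3, is both a sensor and a HIF target. T cell-like cells held 13.9 to 20.1 CPM in the 4 libraries. ASC-like cells had 0 (WT) and 2 UMIs (KO) in SC, which for 0 UMIs allows up to 1.62 CPM, and 11 (WT) and 126 UMIs (KO) in IP. Vhl (ENSMUSG00000033933, chromosome 6, 113623959 to 113631633, plus strand) was low throughout, with 8.19 to 10.4 CPM in ASC-like, 15.7 to 25.4 in T cell-like and 15.1 to 20.6 in B cell-like cells.

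Of the targets, Adm (ENSMUSG00000030790, chromosome 7, 110627661 to 110629820, plus strand), the precursor of the vasodilator adrenomedullin, was a gene of stromal cells. ASC-like cells of SC held 206 CPM in WT (382 UMIs) and 108 in KO (198 UMIs), and those of IP 179 in WT (1126 UMIs) and 251 in KO (1401 UMIs). T cell-like cells had 2 or 3 Adm UMIs per library and B cell-like cells 0 and 1, that is at most 2.63 CPM in cells that should lack it. Within the ASC-like class its UMIs were unevenly held. The 10% of ASC-like cells with most Adm UMIs had 73.0% of them in WT SC and 88.9% in KO SC, or 78.4% without the shared barcodes. In IP they had 58.1% (WT) and 60.0% (KO), while the deepest 10% of cells held 20.6% (WT) and 27.5% (KO) of all UMIs there. A single cell of WT IP carried 158 of its 1126 Adm UMIs. Bnip3 (ENSMUSG00000078566, chromosome 7, 138890836 to 138909519, minus strand), which acts in mitophagy, had 14.1 (WT) and 21.9 CPM (KO) in ASC-like cells of SC, and 14.0 (WT) and 28.3 CPM (KO) in those of IP. Each T cell-like sum was lower, at 2.38 to 6.14 CPM. Ankrd37 (ENSMUSG00000050914, chromosome 8, 45996902 to 46005707, minus strand) had its highest levels in B cell-like cells, 22.2 CPM in WT SC (42 UMIs) and 13.5 in KO SC (33 UMIs). T cell-like cells of SC followed with 8.22 (WT) and 9.20 CPM (KO), and ASC-like cells had 2 to 7 UMIs per library. The 4 targets thus did not share a class. Adm and Bnip3 were highest in ASC-like cells, although Bnip3 of ASC-like cells did not differ beyond counting error from that of B cell-like cells in WT SC or of macrophage-like cells in WT IP. Ankrd37 was highest in B cell-like cells of SC, in KO by no more than counting error over T cell-like cells, and Egln3 in T cell-like cells outside KO IP, with few UMIs elsewhere. UMIs from the 3′ end are not scaled by gene length, and levels are compared here only within a gene.

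Over the 12 sums of a class in a library with at least 30 cells, the patterns most like that of Hif1a among 11081 genes were those of Ero1l (Pearson r of log2(CPM + 1) 0.95), Il17re (0.92) and Abhd15 (0.92). Ero1l encodes an oxidase of the endoplasmic reticulum. For Epas1 they were Gnb5 (0.98), Tor1b (0.97) and Maf (0.95). These values describe the 12 sums, which share libraries, and carry no test.

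KO was compared with WT within a depot and class as a log2 ratio after adding 0.5 UMI, for genes whose UMIs in the pair of libraries came to 20 or more. Ratios of at least 0.5 in either direction are counted below as higher or lower, beside the share of all compared genes past the same limit. With 1 library per group these counts describe the libraries and are no test of genotype.

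In ASC-like cells of IP the KO library held more RNA of Hif1a, Bnip3 and Adm than the WT library. Hif1a was at 146 CPM in KO and 94.0 in WT (log2 ratio 0.63, 95% interval 0.48 to 0.79). Bnip3 was at 28.3 against 14.0 CPM, a ratio of 1.01 (0.63 to 1.41), and Adm at 251 against 179 CPM, a ratio of 0.49 (0.37 to 0.60). Each of these 3 intervals left out 0, but they do not cover the uneven spread of UMIs between cells, which was marked for Adm. Arnt lay the other way, at 66.0 against 82.4 CPM (-0.32, -0.52 to -0.12). Epas1 (-0.03, -0.19 to 0.13), Vhl (0.17, -0.38 to 0.72), Egln1 (-0.18, -0.43 to 0.07) and Egln2 (0.13, -0.19 to 0.45) did not differ beyond counting error. Egln3 had by far the highest ratio, 3.63 (2.80 to 4.73), and its cells are described below. Ankrd37, with 2 and 3 UMIs, was not compared. Egln3 reached the minimum of 20 UMIs only through KO, with 126 against 11 UMIs, and is left out of the count. Of the other 8 genes compared, 2 were higher (Hif1a and Bnip3) and 0 lower, where 15.3% of 12753 genes were higher and 8.65% lower. Under median-of-ratios scaling Hif1a and Bnip3 were still past the limit, and Egln1 was at -0.25 with an interval that ended just under 0. The same scaling changed all genes as well: those past the limit went from 1949 higher and 1103 lower to 1652 and 1423.

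In ASC-like cells of SC the same genes gave another picture, led by Adm. Adm was at 108 CPM in KO and 206 in WT (-0.93, -1.19 to -0.68). Hif1a was at 99.4 against 98.4 CPM, a ratio of 0.02 (-0.29 to 0.32), although 182 UMIs in each library leave room for a difference of that interval's size. Bnip3 pointed to KO, as in IP, at 21.9 against 14.1 CPM, but with 40 and 26 UMIs its interval held 0 (0.63, -0.11 to 1.41). Epas1 was at 65.0 against 48.1 CPM (0.43, 0.03 to 0.85). Without the shared barcodes this last ratio was 0.40 (-0.02 to 0.82) and no longer beyond counting error. Those of Adm (-0.92, -1.18 to -0.67), Hif1a (0.00, -0.31 to 0.30) and Bnip3 (0.63, -0.11 to 1.41) hardly moved. Arnt (-0.01), Vhl (-0.07), Egln1 (-0.32, -0.69 to 0.05) and Egln2 (-0.23) lay within counting error, as they did without the shared barcodes (-0.02, -0.04, -0.33 and -0.19). Of the 8 genes compared, 1 was higher (Bnip3) and 1 lower (Adm), where 12.3% of 10001 genes were higher and 11.3% lower, and their median was -0.04 beside 0.02 over all genes. A count of 1 of 8 in each direction is close to the share of all genes. Giving each cell the same weight, instead of each UMI, moved the ratio of Hif1a in SC to 0.73. Its level then went from 98.4 to 73.4 CPM in WT and from 99.4 to 122 CPM in KO. The shared barcodes are 76 of the 206 cells of KO, and their part in this move was not tested.

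**Figure D2:**
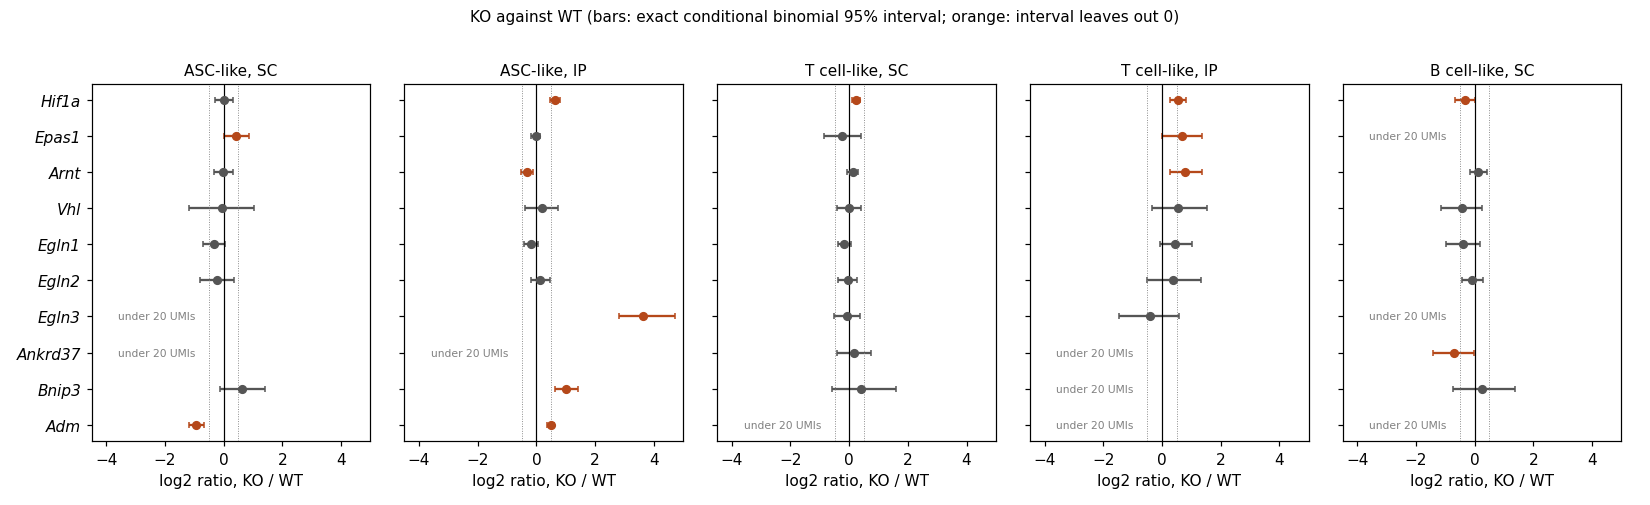
Log2 ratio of KO to WT (horizontal axis) for each gene in 5 comparisons, with exact conditional binomial 95% intervals, in orange where the interval leaves out 0 and with dotted lines at 0.5 and -0.5. In ASC-like cells Adm lies at -0.93 in SC and at 0.49 in IP, and Egln3 of IP stands apart at 3.63.

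Summed RNA of genes that mark other cell types, or dissociation, also differed between the compared libraries. Whether this RNA came from the ASC-like cells or from other cells was not tested. The 5 red cell genes summed to 8187 (WT) and 35.0 CPM (KO) in ASC-like cells of SC, and to 326 (WT) and 66.5 CPM (KO) in those of IP. The 13 dissociation and immediate early genes summed to 10322 (WT) and 12928 CPM (KO) in SC, and to 10891 (WT) and 9654 CPM (KO) in IP. The 6 mesothelial markers, all 6 of which had UMIs in both IP libraries, summed to 191 (WT) and 912 CPM (KO) there. In SC 2 (WT) and 4 (KO) of the 6 had UMIs, and the defining marker Msln was at 0 in either. The 6 mural markers, the cells of which had high Epas1, summed to 167 (WT) and 69.4 CPM (KO) in ASC-like cells of IP and to 44.9 and 45.3 CPM in those of SC. In SC the NK markers had 0 (WT) and 53 UMIs (KO) and the B cell markers 8 and 66 UMIs. The part of red cell, mural, NK and B cell RNA and of dissociation genes in the ratios was not tested.

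Mesothelial cells line the organs and the visceral fat, and the ASC-like class held some cells with their markers. Cells with at least 2 of the 6 mesothelial markers numbered 31 of the 236 ASC-like cells in KO IP and 7 of 284 in WT IP, and in SC 1 (WT) and 0 (KO). In KO IP, 120 of the 126 Egln3 UMIs lay in 11 of these 31 cells, which is 82.4 CPM, against 1.46 CPM in the other 205 cells. The 7 such cells of WT IP held 0 Egln3 UMIs, and the other 277 held 11, or 1.82 CPM. Among cells that got no class, 48 in KO IP, 35 Egln3 UMIs were found, of which 33 lay in 4 of 9 cells with at least 2 mesothelial markers, and 28 in a single cell. Without the cells with 2 mesothelial markers, Egln3 had 6 UMIs in KO and 11 in WT, too few to compare. The Egln3 difference between the IP libraries therefore rested on a few cells with mesothelial markers. Most of the 31 cells of KO had all 6 markers, while most of the 7 cells of WT had exactly 2. Most of the 120 Egln3 UMIs lay in cells with all 6, and WT had too few of these to compare.

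The other genes were examined with the same cells left out. Hif1a was then at 151 CPM in KO and 95.1 in WT (0.66, 0.50 to 0.83) and Bnip3 at 23.1 against 12.7 CPM (0.86, 0.41 to 1.31). Adm was at 315 against 178 CPM, and its ratio went from 0.49 to 0.82 (0.70 to 0.94). Epas1 went from -0.03 to 0.19 (0.02 to 0.36) and Arnt from -0.32 to -0.19, an interval that held 0 (-0.40 to 0.02). In KO IP the 31 cells pooled had 70.8 CPM of Adm and 47.4 of Epas1, against 315 and 124 CPM in the other ASC-like cells. Their Bnip3 was at 43.3 against 23.1 CPM. The pool mixed cells with exactly 2 of the markers and cells with all 6, which were unlike. Most of its Adm and Epas1 UMIs lay in the cells with exactly 2, while the cells with all 6 held most of its total UMIs. The cells with all 6 also held most of its Bnip3 UMIs, so the pooled Bnip3 value is mainly theirs. The pooled values of Adm and Epas1 therefore describe neither kind of cell.

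**Figure D3:**
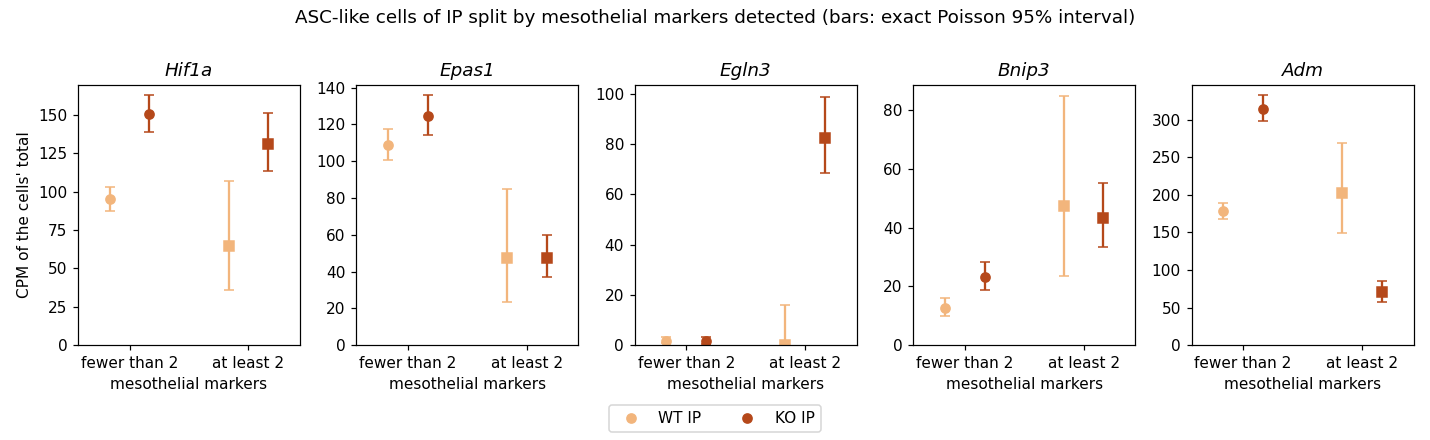
Level of 5 genes in CPM (vertical axis, from 0) in ASC-like cells of WT IP and KO IP with fewer than 2 (circles) and at least 2 (squares) mesothelial markers, with exact Poisson 95% intervals. Egln3 stands at 82.4 CPM in the 31 marker-bearing cells of KO IP and below 2 CPM in the cells with fewer markers, where Hif1a, Bnip3 and Adm are higher in KO IP.

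Adm therefore pointed down in KO in one depot and up in the other. The SC ratio stayed between -1.06 and -0.92 and the IP ratio between 0.49 and 0.82 when the mesothelial marker cells, the shared barcodes, the cell with most Adm UMIs in each library, or cells under 500 genes were left out. Hif1a of IP stayed between 0.60 and 0.66 under the same choices. Whether the depots differ in the effect of KO was not tested, since each value rests on 1 library.

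**Figure D4:**
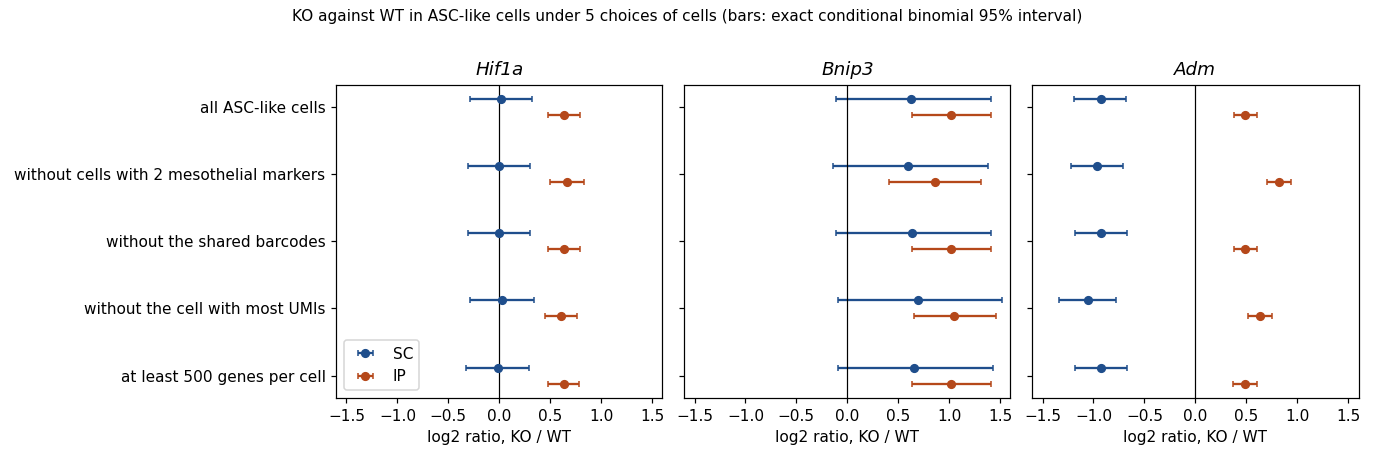
Log2 ratio of KO to WT in ASC-like cells (horizontal axis) for Hif1a, Bnip3 and Adm under 5 choices of cells (vertical axis), SC in blue and IP in orange, with exact conditional binomial 95% intervals. Adm keeps opposite signs in the 2 depots under each choice, and Hif1a is near 0 in SC and above 0.5 in IP.

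In T cell-like cells of IP, KO again had more Hif1a RNA, 271 against 186 CPM (0.54, 0.28 to 0.82), with 309 and 185 UMIs. Arnt was at 79.0 against 45.2 CPM (0.80, 0.27 to 1.36) and Epas1 at 48.2 against 30.1 CPM (0.67, 0.01 to 1.37). Vhl (0.56, -0.34 to 1.53), Egln1 (0.46), Egln2 (0.38) and Egln3 (-0.42) did not differ beyond counting error, on 37 to 124 UMIs. Bnip3, Ankrd37 and Adm, with 5 to 10 UMIs, were not compared. Of 7 genes, 4 were higher and 0 lower, where 23.8% of 8002 genes were higher and 9.1% lower, and the median was 0.54 beside 0.14. Scaling by median of ratios shifted all genes by 0.13. It left Hif1a at 0.42 (0.15 to 0.69), Arnt at 0.67 (0.15 to 1.23) and Epas1 at 0.54 (-0.11 to 1.25), so that 2 members were higher (Arnt and Epas1) and 1 lower (Egln3, at -0.55). All genes past the limit then went from 1901 higher and 728 lower to 1402 and 1061. Red cell genes summed to 5711 (WT) and 118 CPM (KO) in these cells, and NK markers to 193 and 115 CPM. The 6 endothelial markers summed to 78.3 (WT) and 139 CPM (KO), and Cdh5, Tie1, Egfl7 and Cldn5 among them were at 0 in either library. The part of these sources in the ratios was not tested.

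T cell-like cells of SC, the largest class, showed little. Hif1a was at 147 CPM in KO and 125 in WT (0.23, 0.09 to 0.38), and it was the only 1 of 9 genes whose interval left out 0. The other 8 ratios ran from -0.25 (Epas1) to 0.41 (Bnip3). None of the 9 was past 0.5, where 5.76% of 11316 genes were higher and 18.1% lower. Median-of-ratios scaling moved all genes by -0.16, which put Hif1a at 0.39 (0.25 to 0.53), Arnt at 0.27 (0.08 to 0.47) and Bnip3 at 0.56 (-0.43 to 1.74), and changed the genes past the limit from 652 higher and 2044 lower to 1074 and 1290. Red cell genes summed to 2773 (WT) and 309 CPM (KO) here. Hif1a was thus higher in KO than in WT in T cell-like cells of both depots and in ASC-like cells of IP. In ASC-like cells of SC its ratio was close to 0 with UMIs summed, but 0.73 with each cell weighted equally. Each comparison rests on its own pair of libraries, and the classes of a depot share theirs.

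In B cell-like cells of SC, Ankrd37 was lower in KO, 13.5 against 22.2 CPM, on 33 and 42 UMIs (-0.72, -1.42 to -0.03). Hif1a was at 62.9 against 79.3 CPM (-0.33), with an interval whose upper end lay just under 0, and under median-of-ratios scaling, which shifted all genes by -0.11, it was -0.23 (-0.56 to 0.11). Ankrd37 was then at -0.61 (-1.32 to 0.08), so neither was beyond counting error with that scaling. Egln2, the hydroxylase with its highest level here, was at 63.3 against 66.6 CPM (-0.07, -0.42 to 0.28). Of 7 genes, 0 were higher and 1 lower, where 7.08% of 8922 genes were higher and 13.5% lower. Red cell genes summed to 9829 (WT) and 999 CPM (KO) in these cells. With the other scaling the genes past the limit changed from 632 higher and 1205 lower to 908 and 864.

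Between depots, Epas1 was the gene that differed in each of the 4 comparisons of IP with SC. In ASC-like cells it was at 107 CPM in WT IP and 48.1 in WT SC (1.14, 0.83 to 1.48), and at 104 against 65.0 CPM in KO (0.68, 0.40 to 0.98, or 0.71 without the shared barcodes). T cell-like cells had 30.1 against 7.79 CPM in WT (1.96, 1.20 to 2.69) and 48.2 against 6.59 CPM in KO (2.87, 2.32 to 3.42). The 6 ASC markers summed to 41.2 (WT) and 37.7 CPM (KO) in T cell-like cells of IP, against 7.36 and 5.75 CPM in SC. In ASC-like cells the same sum was 22890 to 29653 CPM. NK markers summed to 193 and 115 CPM in T cell-like cells of IP and to 40.5 and 23.6 in SC. The part of stromal and of NK cell RNA in the difference was not tested. Endothelial markers summed to 78.3 (WT) and 139 CPM (KO) in IP and to 139 and 123 in SC. In WT IP all of these UMIs were of Pecam1, and Tie1 and Cldn5 were at 0 in each library. Pecam1 was also the only endothelial marker found in B cell-like cells of SC, with 397 (WT) and 426 UMIs (KO).

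Egln1 lay the other way in ASC-like cells, at 49.2 CPM in WT IP against 75.7 in WT SC (-0.63, -0.91 to -0.32) and at 43.4 against 60.6 CPM in KO (-0.49, -0.81 to -0.15). Hif1a did not differ between the depots of WT in ASC-like cells (-0.07, -0.31 to 0.18), while in KO it was at 146 CPM in IP and 99.4 in SC (0.55, 0.32 to 0.79, and 0.57 without the shared barcodes). In T cell-like cells Hif1a was higher in IP in WT (0.58, 0.33 to 0.82) and in KO (0.89, 0.71 to 1.07). Adm of ASC-like cells was at 179 CPM in WT IP against 206 in WT SC (-0.21, -0.37 to -0.03) and at 251 against 108 CPM in KO (1.21, or 1.20 with an interval of 0.99 to 1.43 without the shared barcodes). Arnt of KO was lower in IP (-0.50, -0.76 to -0.22). Without the shared barcodes Arnt of KO was at -0.48 and Egln1 at -0.47, with intervals that still left out 0. Egln3 of KO, with 126 UMIs in IP and 2 in SC, had a ratio of 4.05 (2.49 to 7.43, or 4.75 without the shared barcodes) that rests on the cells with mesothelial markers described above. Among ASC-like cells of WT, 1 of 8 genes was higher in IP (Epas1) and 1 lower (Egln1), where 22.8% of 11816 genes were higher and 16.8% lower. Among those of KO, Egln3 passed the UMI minimum only through IP, and of the other 8 genes 3 were higher (Hif1a, Epas1 and Adm) and 0 lower, where 26.2% of 11989 genes were higher and 15.4% lower. Under median-of-ratios scaling Epas1 and Adm stayed higher, Hif1a came inside the limit, and Arnt and Egln1 were past it as lower.

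For T cell-like cells of WT, 2 of 8 genes were higher in IP (Hif1a and Epas1) and 3 lower (Arnt, Egln2 and Ankrd37), where 18% of 9820 genes were higher and 17.4% lower. For those of KO, 5 of 9 were higher and 1 lower (Ankrd37), where 38.9% of 10829 genes were higher and 11.9% lower. Ankrd37 had only 4 (WT) and 3 UMIs (KO) in IP, against 38 and 88 in SC, and passed the UMI minimum through SC. With Ankrd37 left out, as Egln3 was above, the genes lower in IP by class total were Arnt and Egln2 in WT. In KO no member was then lower. In the comparison of KO the scaling mattered most. Median-of-ratios scaling shifted all genes by 0.44, left 2 members higher (Epas1 and Bnip3) and 2 lower (Egln2 and Ankrd37), and changed the genes past the limit from 4211 higher and 1287 lower to 2153 and 2880. Hif1a (0.45, 0.27 to 0.63) and Epas1 (2.43, 1.88 to 2.98) still had intervals above 0.

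**Figure D5:**
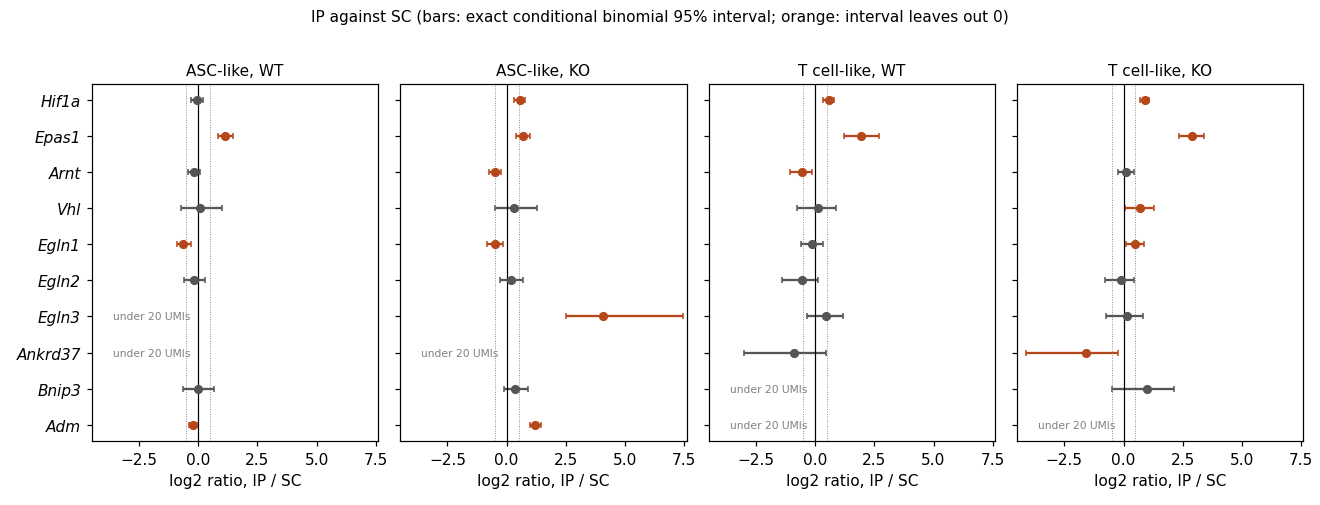
Log2 ratio of IP to SC (horizontal axis) for each gene in ASC-like and T cell-like cells of WT and KO, with exact conditional binomial 95% intervals, in orange where the interval leaves out 0 and with dotted lines at 0.5 and -0.5. Epas1 is above 0 in all 4 panels, from 0.68 to 2.87, and Egln1 is below 0 in both panels of ASC-like cells.

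The wider pathway was read from lists of 12 other HIF regulators and 27 other HIF targets, of which 12 and 26 were matched to a single feature. In ASC-like cells of IP, 3 of 25 targets compared were higher in KO and 3 lower, beside 15.3% and 8.65% of all genes. Their median was 0.17 beside 0.04 over all genes. The highest ratio was that of Hmox1, which encodes the haem-degrading enzyme heme oxygenase 1, at 406 CPM in KO and 105 in WT (1.95, 1.82 to 2.07). Ddit4 (0.51), an inhibitor of mTORC1, and the glycolytic enzyme gene Pkm (0.51) were the others. Among those lower in KO were the collagen prolyl hydroxylase gene P4ha2 (-0.67) and the glucose transporter gene Slc2a1 (-0.52). Among 11 regulators the chaperone gene Hsp90aa1 was higher (725 against 507 CPM, 0.52) and 0 were lower. These counts of targets and regulators in IP are near the shares of all genes.

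In ASC-like cells of SC, 3 of 24 targets were higher and 2 lower, with a median of -0.08 beside 0.02. Hmox1 was higher here too, at 117 CPM in KO and 50.8 in WT (1.20, 0.85 to 1.57), as was Vegfa, the vascular growth factor gene, at 153 against 84.3 CPM (0.86, 0.58 to 1.16). The collagen cross-linking gene Loxl2 was at 161 against 250 CPM (-0.63, -0.85 to -0.42). Vegfa of IP was at 33.5 against 26.1 CPM (0.36). Of 11 regulators in SC 1 was higher, Hif1an, which encodes the asparagine hydroxylase of HIF, on 23 and 10 UMIs (1.18, 0.09 to 2.45), and 0 lower. Hif1an had 20 UMIs or more only in KO. These ASC-like shares of SC are near those of all genes given above for the same libraries. In T cell-like cells of IP, 6 of 19 targets were higher and 1 lower, beside 23.8% and 9.1% of all genes, with a median of 0.22 beside 0.14. In those of SC 6 of 22 were lower, beside 18.1% of all genes, with a median of -0.10 beside -0.14. The single target past the limit in the other direction there was Loxl2, with 20 UMIs in KO and 0 in WT, which reached the minimum of 20 UMIs only through KO. In B cell-like cells 1 of 19 was higher and 2 lower, beside 7.08% and 13.5% of all genes.

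The share of ASC-like cells with at least 1 UMI followed depth as well as level. Hif1a was found in 59.6% (WT; Clopper-Pearson 95% interval 49.5% to 69.1%) and 39.3% (KO) of cells in SC, and in 68.7% (WT) and 67.4% (KO) in IP. Without the shared barcodes the KO SC share was 56.9% (48.0% to 65.6%). Thinned to 2000 UMIs per cell, with 13, 85, 23 and 26 shallower cells left out in SC (WT, KO) and IP (WT, KO), the shares were 15.4%, 16.0%, 15.9% and 21.9%. Adm was found in 40.4% of cells of WT SC and 18.9% of KO SC, or 26.9% without the shared barcodes (19.5% to 35.4%), and in 55.3% (WT) and 54.2% (KO) in IP. Thinned, it was in 25.3% (WT) and 11.0% (KO) in SC, and in 21.6% (WT) and 28.4% (KO) in IP. In B cell-like cells, which served as the gauge of free RNA, Adm was found in 0 of 303 cells in WT SC, where the 95% interval ends at 1.21%, and in 1 of 468 cells in KO SC, at thinned depth 0% and 0.08%. The thinned order of the libraries was that of the CPM for Adm, and for Hif1a KO IP was again above the other 3.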

How the data were processed

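The matrices deposited by the authors hold raw UMI counts, from Cell Ranger 7.0.0 (file headers) on mm10 with STAR 2.6 per the submitters' processing notes, from 10x Genomics 3′ v3 libraries of digested AT. Filters applied by the authors and the use of intronic reads are not given in the sources used here, and counting introns would raise long genes. The labels name both cells and nuclei as loaded material.

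Cells needed 200 genes or more and no more than 25% mitochondrial UMIs. Scrublet (scanpy 1.11.5, expected rate 5%, seed 0) removed 23 (0.556%). A cell took the class with most marker UMIs, given at least 2 distinct markers and 2 times the UMIs of the next class. UMIs were summed per class and library. Ratios needed at least 30 cells in both libraries and 20 UMIs in all. Intervals are exact Poisson, conditional binomial or Clopper-Pearson at 95% and cover counting error only. A count of 0 was taken to allow 3 counts. No test was possible with 1 library per group, and cells are not replicates. The ratio was tested on simulated independent Poisson counts, the model its interval assumes. The simulation did not include the uneven spread of UMIs between cells. Alternatives were other filters, class rules, scalings, pseudocounts and weights.

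Members, lists and markers were chosen with earlier results of these data known. All members are named. Other pathway genes were named from ASC-like cells with at least 50 UMIs and a log2 ratio of at least 0.5, up to 4 per direction and depot. Hif1an, Vegfa of IP and Loxl2 of T cell-like cells were named after their values were seen. Gene positions are from GENCODE (GRCm38), where 32235 of 32290 identifiers matched. Python 3.11.15 was used with scipy 1.17.1, numpy 2.4.6 and matplotlib 3.10.9. The values of 1 gene of the list of other HIF targets are not reported here.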

Additional observations from a re-analysis of the deposited data

Results flagged for a closer look

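Adm in ASC-like cells pointed in opposite directions in the depots, each beyond counting error: the log2 ratio of KO to WT was -0.93 in SC and 0.49 in IP. Seen the other way, the log2 ratio of IP to SC was -0.21 in WT and 1.21 in KO. The difference between the depots, or between the genotypes, was not tested, because each group is 1 library. In KO IP, 31 ASC-like cells with at least 2 mesothelial markers had 70.8 CPM of Adm against 315 CPM in the other 205. Most Adm UMIs of the 31 lay in the cells with exactly 2 markers and few in those with all 6. The pooled value therefore describes neither kind of cell.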

How the results depend on the processing

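No paired analysis was possible because each group is 1 library and the labels carry no replicate numbers. Across 15 alternatives, 125 of 126 values of the member medians moved by no more than the counting error of their middle members. The exception was the median over T cell-like cells of KO for IP against SC, 0.50 by class total and 0.062 under median-of-ratios scaling, which shifted all genes by 0.44. That counting error is wide where a middle gene has few UMIs, as Vhl in ASC-like cells, so large moves can stay inside it. With each cell weighted equally, the KO against WT median of ASC-like cells went from -0.04 to 0.43 in SC. In IP it went from 0.17 to 0.67. Of 1028 values of single ratios, 994 stayed inside their counting interval, 33 left it and 1 changed sign: Ankrd37 in T cell-like cells of WT, IP against SC, was -0.88 and became 0.055 with each cell weighted equally, on 4 and 38 UMIs. A changed UMI minimum alters which genes are compared and not a single ratio. The 66 values with at least 50 UMIs and the 74 with no filter on UMIs therefore could not move. Weighting cells equally accounted for 18 of the 33, and put Egln2 of ASC-like cells, KO against WT, at -1.23 in SC and 0.93 in IP. Egln3 of ASC-like IP, KO against WT, ran from 1.87 with a dominance of 5 times in the class rule to 5.52 without the cells with most UMIs. The 3 alternatives chosen after the data were seen were leaving out ASC-like cells with 2 mesothelial markers, the cell with most UMIs of each member, and the shared barcodes. Without the mesothelial marker cells 29 of 32 ratios stayed inside their interval, and without the shared barcodes all 42 did. Depth limits Ankrd37 and Egln3 in ASC-like cells of SC, and Bnip3, Ankrd37 and Adm in T cell-like cells of IP.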
